A study of Mus musculus with 6 samples.

Results

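The respiratory chain of R1 mouse embryonic stem (ES) cells was measured through 91 genes, taken as every single-gene probe set whose symbol belongs to the Nduf, Sdh, Uqcr, Cyc1, Cox4 to Cox8 and Atp5 families. These 91 of the 18193 genes named on the array were covered by 180 of 34945 single-gene probe sets, and the brightest probe set over the 6 arrays stood for its gene. They comprised 36 genes named as subunits of complex I, 8 complex I assembly factors (Ndufaf), 4 genes of complex II, 9 of complex III, 17 of complex IV and 17 of complex V. Complexes were assigned by symbol, so Ndufa4, now counted with complex IV, and its paralogue Ndufa4l2 stood under complex I. The rule used symbols and no measured value, but the group was chosen with earlier results of these data known. Of the 91 genes, 88 passed the filter on low signals and were tested.

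R1 cells were grown with LIF, the cytokine that keeps ES cells undifferentiated, and stably expressed a short hairpin RNA (shRNA). The control group of 3 arrays carried a mismatch control sequence, and the other 3 arrays carried an shRNA against Pcl2, the product of Mtf2, a Polycomb-like partner of the histone methyltransferase complex PRC2. The labels describe 3 biological replicates per group and a single Pcl2 shRNA clone, so the effect of the shRNA and of that clone cannot be told apart. The p-values measure the spread between these samples, and the labels do not say whether replicates came from separate cultures.

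The respiratory chain sits in the inner mitochondrial membrane. Complex I takes electrons from NADH and complex II from succinate, complex III passes them to cytochrome c, and complex IV passes them to oxygen. Complexes I, III and IV pump protons, and complex V, the ATP synthase, uses the gradient to make ATP. Most subunits are encoded in the nucleus, and a few core subunits in mitochondrial DNA. Cultured mouse ES cells grown with serum and LIF respire and also run a high rate of glycolysis.

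Signals were MAS5 values scaled by the authors, with a trimmed mean of 150.001 on each array. The number of arrays limits the precision. The brightest Mtf2 probe set read 1951, 1513 and 1704 on control arrays 1 to 3 and 1048, 1167 and 869.6 on Pcl2 shRNA arrays 1 to 3. The groups did not overlap, with a log2 fold change of -0.74 (two-sided exact permutation p = 0.1, the smallest that 20 relabellings allow). Of 6 Mtf2 probe sets, 4 separated the groups this way. All 10 ES cell markers passed the filter, and their summed signal was 23660 to 29640.1 in the control and 35509.8 to 46208 with the Pcl2 shRNA, with Esrrb, Klf4, Sox2 and Zfp42 past the test. Of these 10 markers, 9 had positive log2 fold changes and 1, Lin28a, a negative one (-0.36). With the replicate number as a block, 5 of the 10 rose and none fell. The part of the ES cell marker difference in the results on the chain was not tested. Fibroblast markers summed to 447 to 1092 in the control and 316 to 622 with the Pcl2 shRNA, and 6 of the 11 passed the filter. All 6 had negative log2 fold changes, with a median of -0.67, and Twist2 fell (-1.79, adjusted p = 0.0122), as did Col1a1 and Col3a1 with the replicate number as a block. The highest sums stood on replicate 1 of each group, and Dcn, Lum and Fap were below 20.2, the filter, on every array. In bulk samples, fewer cells of a type and less RNA per cell cannot be told apart.

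Across the chain, 9 members rose with the Pcl2 shRNA and none fell, while 79 did not pass the test (limma, adjusted p below 0.05). Of the 9, Ndufa4l2, Ndufb11, Ndufb5, Ndufs1, Ndufv1 and Ndufv3 stood under complex I by symbol. The others were Sdhb of complex II and Uqcr10 and Uqcrq of complex III. The 9 are 10.2% of the 88 tested, beside 4.46% of all 13095 genes tested that rose. The count was 0 to 8 when 1 array was left out. Of all genes tested, 8.16% fell. At an unadjusted p below 0.05, limma gave 20 members higher and 0 lower, and of all genes tested 1476 higher and 1941 lower.

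Most differences were small and lay on the positive side. Fold changes are on the log2(signal + 7) scale, which understates those of dim genes. Of the 88 tested members, 78 had a positive log2 fold change and 10 a negative one. The positive share was 88.6%, against 52.4% of all genes tested. The members' median was 0.27, with quartiles of 0.10 and 0.37, against a median of 0.02 over all genes. The groups did not overlap, with the Pcl2 shRNA above, in 33 members, where 14.5% of all genes did so. They did not overlap with the Pcl2 shRNA below in 2 members, Ndufa2 and Ndufb7, where 16.7% of all genes did so. Neither of the 2 passed the test.

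**Figure D1:**
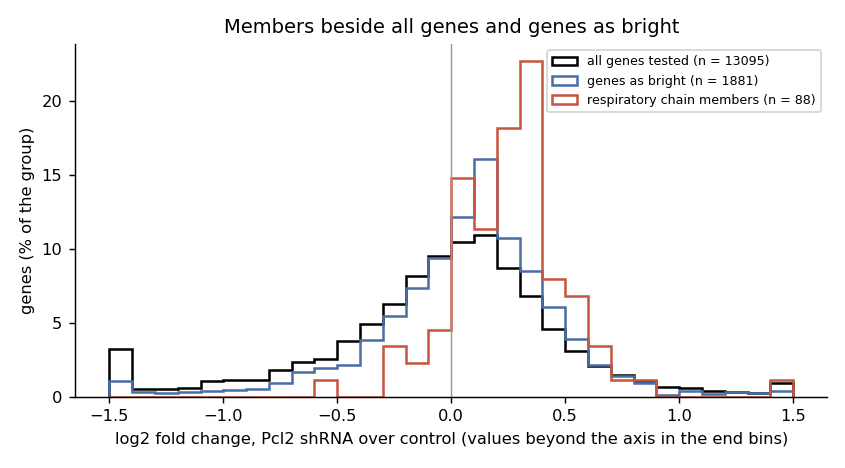
Histogram of the log2 fold change, Pcl2 shRNA over control, as a percent of each group: the 88 tested members, the 13095 genes tested and the 1881 genes at or above the members' lower quartile of signal. The members' median lies at 0.27, that of the bright genes at 0.11 and that of all genes at 0.02.

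Members were bright on these arrays, and bright genes as a whole leaned the same way. The 1881 genes with a mean signal of at least 709.9, the members' lower quartile, had a median log2 fold change of 0.11, with 63.8% positive and 6.22% higher past the test. Among these genes were 66 members, with a median of 0.28 and 60 positive values, of which 8 (12.1%) rose. The part of brightness in the members' shift was not tested.

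The shift was uneven over the arrays. For each array, the median log2 deviation of the 88 members from their own 6-array means was taken. It was -0.26 on control array 1, -0.01 on control array 2 and -0.11 on control array 3. It was 0.08, 0.06 and 0.23 on Pcl2 shRNA arrays 1 to 3. The groups of medians did not overlap, and the extremes were control array 1 and Pcl2 shRNA array 3. Control array 1 held the lowest value of 49 of the 88 tested members, and Pcl2 shRNA array 3 the highest value of 45. Over all genes tested, the same arrays held the lowest value for 15.6% and the highest for 19.9%. The median deviation over all genes stayed between -0.04 and 0.03 on every array. These 2 arrays also lay at the ends of the signal scale, since the 99th percentile of signal was 3162 on control array 1 and 3818 on Pcl2 shRNA array 3, against 3435 to 3653 on the other 4. Without both arrays, a comparison chosen after seeing the data, the members' median was 0.11, against -0.00 for all genes, with 62 members positive and none past the test.

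**Figure D2:**
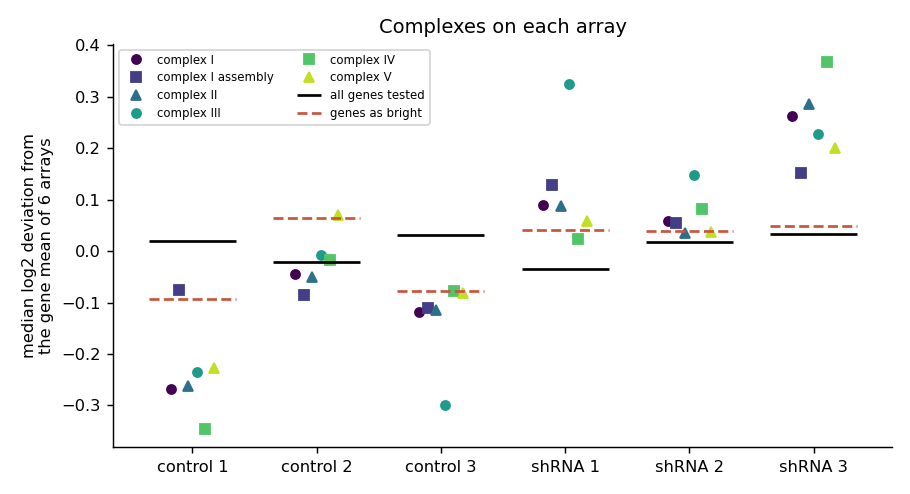
Median log2 deviation from the 6-array gene mean on each array (x axis), for the members of each complex (markers), all genes tested (solid lines) and genes as bright (dashed lines). Complex IV runs from -0.34 on control array 1 to 0.37 on Pcl2 shRNA array 3, while all genes stay between -0.04 and 0.03.

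Each group's samples carry the numbers 1 to 3 in the labels. With this number as a block, 18 members rose and none fell, where 9.97% of all genes rose and 13.8% fell. All 9 members named above were among the 18. The block added Atp5g1, Atp5h, Cox7a1, Cox7c, Cyc1, Ndufb10, Ndufb3, Ndufs5 and Sdhc.

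Within complex I, the entry point for NADH, 6 of 35 tested genes rose and none fell (limma, 9 higher and 0 lower at an unadjusted p below 0.05). The 6 included Ndufa4l2, placed here by its symbol. The median log2 fold change was 0.26, with 31 values positive and 4 negative. The NADH module is the part that binds NADH and starts electron transfer. A list of 7 of its genes (Ndufv1, Ndufv2, Ndufv3, Ndufs1, Ndufs4, Ndufa2 and Ndufa12), chosen with earlier results known, had a median of 0.32. Of these, 3 rose (42.9%), against 17.1% of complex I and 4.46% of all genes tested. In the 6 fits that left out 1 array, Ndufs1 lost its call in 6, Ndufv3 in 5 and Ndufv1 in 3. The difference between the module and the rest of complex I was not tested.

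Ndufv1, the flavoprotein subunit that binds NADH, read 895, 1212 and 1143 on control arrays 1 to 3 and 1511, 1662 and 1955 on Pcl2 shRNA arrays 1 to 3. The lowest Pcl2 shRNA value lay above the highest control value. The means were 1084 ± 167 in the control and 1709.5 ± 226 with the Pcl2 shRNA (SD, n = 3), 1.58-fold (log2 fold change 0.66, SE 0.17, adjusted p = 0.0303). Its other tested probe sets gave 0.52 and 0.46.

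Ndufv3, a small subunit next to Ndufv1, read 1212, 1612 and 1078 in the control and 1873, 1996 and 1923 with the Pcl2 shRNA. The groups did not overlap, and control replicate 2 came closest to the Pcl2 shRNA group. The rise was 1.5-fold (log2 fold change 0.59, SE 0.17, adjusted p = 0.0490). Ndufs1, which holds iron-sulphur clusters, read 762, 754 and 676 in the control and 1084, 966 and 1041 with the Pcl2 shRNA. All 3 Pcl2 shRNA values lay above all 3 control values, by 1.41-fold on average (log2 fold change 0.49, SE 0.14, adjusted p = 0.0488). Ndufv2, the partner of Ndufv1, read 1478, 1757 and 1678 in the control and 1969, 1899 and 2254 with the Pcl2 shRNA. These groups did not overlap either, but the difference did not pass the test (log2 fold change 0.32, adjusted p = 0.205). Ndufa2 went the other way without passing, at 906, 1023 and 993 in the control and 857, 799 and 817 with the Pcl2 shRNA (log2 fold change -0.24, adjusted p = 0.328).

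The Ndufb subunits belong to the membrane arm, where protons are pumped. Of 10 tested, 2 rose, and the median was 0.37. Ndufb11 read 1506, 1493 and 1821 in the control and 2684, 2124 and 2558 with the Pcl2 shRNA. The groups were apart by 1.52-fold (log2 fold change 0.61, SE 0.16, adjusted p = 0.0297), and its other tested probe sets gave 0.46 and 0.58. Ndufb5 read 1246, 1487 and 1378 in the control and 1793, 1983 and 2345 with the Pcl2 shRNA, with no overlap (log2 fold change 0.57, SE 0.16, adjusted p = 0.0393). A further probe set for Ndufb5 gave 0.57. Ndufb7 read 664, 682 and 619.7 in the control and 597, 508 and 502 with the Pcl2 shRNA, with every Pcl2 shRNA value below every control value, and did not pass the test (log2 fold change -0.29, adjusted p = 0.258). Its other tested probe set gave -0.46, also with separate groups. Ndufb3 and Ndufb10 both had a log2 fold change of 0.47 and passed with the replicate number as a block (adjusted p = 0.0296 and 0.0200) but not without it (adjusted p = 0.0974 and 0.104). Ndufb4 was below the filter.

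Ndufa4l2, a paralogue of Ndufa4 known as a target of hypoxia-inducible factor, had the largest log2 fold change of the 88 tested members and widely scattered values. It read 23.3, 101 and 42.0 on control arrays 1 to 3 and 105, 268 and 447 on Pcl2 shRNA arrays 1 to 3. The lowest Pcl2 shRNA value, on array 1, was close to the highest control value, on array 2. The difference was 4.44-fold (log2 fold change 2.15, SE 0.53, adjusted p = 0.0235), and 0.000901 was its adjusted p with the replicate number as a block. The gene had a single probe set. Ndufa4 itself, a bright subunit now counted with complex IV, read 974, 1672 and 1313 in the control and 1394, 1367 and 1656 with the Pcl2 shRNA, and these values overlapped (log2 fold change 0.19, adjusted p = 0.624).

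By family, the 3 Ndufv genes had a median of 0.59, above the 0.37 of Ndufb. The 13 Ndufa genes had a median of 0.22 with Ndufa4l2 as the one that rose, and the 6 Ndufs genes a median of 0.30 with Ndufs1 as the one that rose. The 2 Ndufc genes had a median of 0.06. Ndufa7 and Ndufa1, the brightest complex I probe sets, read 3160.4 ± 812 in the control and 3817 ± 1044 with the Pcl2 shRNA and 2258 ± 337 in the control and 2619 ± 298 with the Pcl2 shRNA (SD, n = 3). Neither passed the test (log2 fold changes 0.27 and 0.22, adjusted p = 0.528 and 0.451).

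Promoters of the chain were read from RefSeq sequences (GRCm38.p6, 250 bases before to 50 after the start), which covered 74 of the 91 genes with 79 promoters. Nuclear respiratory factor 1 (NRF1), the ETS factor GABP, oestrogen-related receptors (ERR) and YY1 are known regulators of respiratory genes. On either strand, TGCGCA (the NRF1 core) was in 24.1% of member promoters, against 7.76% of all 32851 promoters. CCGGAA (an ETS core) was in 36.7% against 14.9%, AAGGTCA (the ERR half-site) in 10.1% against 4.72%, and GCCATNTT (YY1) in 21.5% against 6.05%. All promoters were counted whether or not their gene was tested here. Promoters of genes as bright were not compared, so the shares do not show a trait particular to the chain. Of the 9 members that rose, 6 had an entry. The ETS core was in those of Ndufv1, Ndufv3 and Sdhb, and the YY1 letters in those of Ndufb11 and Ndufb5. TGCGCA and AAGGTCA were in none of the 6 windows, which says only that these letters are not there.

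The 150 bases directly before the start of 3 complex I genes that rose and carry such a match there read as follows, 5′ to 3′ on the strand of the gene, with the match in capitals (YY1 in Ndufb5 at chr3:32736913-32737062, plus strand; the ETS core in Ndufv1 at chr19:4012756-4012905, minus strand, and in Ndufv3 at chr17:31519965-31520114, plus strand). A match is a description and not a binding site.
Ndufb5: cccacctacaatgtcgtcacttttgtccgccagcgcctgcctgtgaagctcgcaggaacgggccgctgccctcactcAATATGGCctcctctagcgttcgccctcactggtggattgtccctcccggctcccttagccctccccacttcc
Ndufv1: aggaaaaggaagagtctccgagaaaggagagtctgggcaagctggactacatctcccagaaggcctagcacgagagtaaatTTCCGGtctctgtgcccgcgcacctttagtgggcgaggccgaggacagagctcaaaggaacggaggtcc
Ndufv3: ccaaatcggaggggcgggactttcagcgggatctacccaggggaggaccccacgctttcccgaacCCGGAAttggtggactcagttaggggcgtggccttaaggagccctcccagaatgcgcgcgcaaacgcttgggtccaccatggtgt
The ETS core lies on the opposite strand in Ndufv1, where it reads TTCCGG, and on the gene's strand in Ndufv3. In Ndufb5 the YY1 letters also read from the opposite strand.

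**Figure D3:**
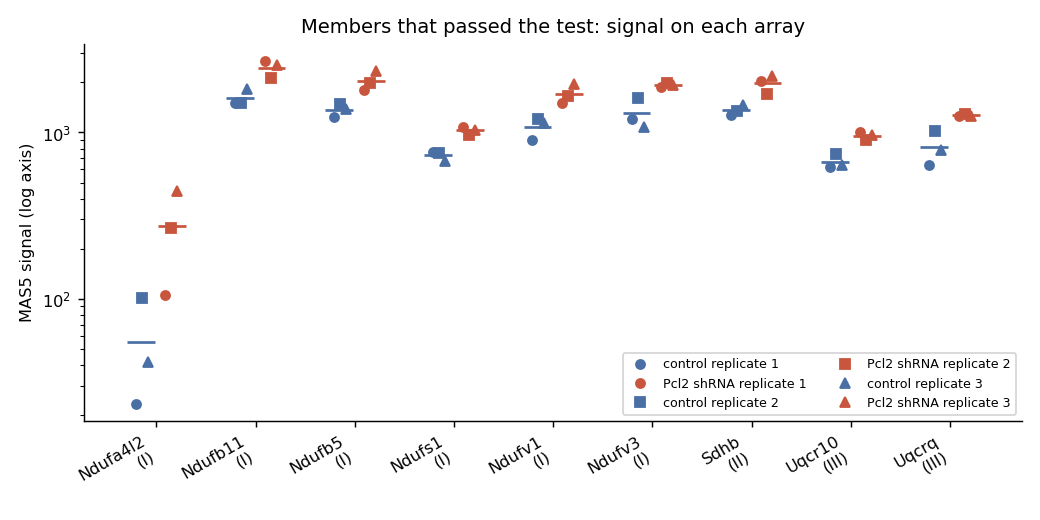
MAS5 signal (log axis) of the 9 members that rose, with 1 marker per array (circle, square and triangle for replicates 1 to 3), control in blue and Pcl2 shRNA in red, and group means as lines. All 9 members have separate groups, and Ndufa4l2 spreads most within each group.

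Assembly factors build complex I without staying in it. None of the 8 Ndufaf genes passed the test in either direction, and their median was 0.15. At an unadjusted p below 0.05, limma gave 1 of them higher, Ndufaf8, and 0 lower. Ndufaf8 read 371, 366 and 339.8 in the control and 522, 420.3 and 461 with the Pcl2 shRNA (log2 fold change 0.37, adjusted p = 0.163), and Ndufaf5, which modifies a complex I subunit, read 155, 135 and 120.5 in the control and 186, 169 and 184 with the Pcl2 shRNA (log2 fold change 0.38, adjusted p = 0.208). Both had separate groups. Ndufaf6 had the most negative log2 fold change of the 88 tested members, at 329, 512 and 585 in the control and 354, 219 and 389.8 with the Pcl2 shRNA (log2 fold change -0.56, adjusted p = 0.214). Its groups overlapped.

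Complex II, succinate dehydrogenase, links the citric acid cycle to the chain, and 1 of its 4 genes rose. Sdhb, the iron-sulphur subunit, rose 1.45-fold, from 1278, 1348 and 1462 to 2048, 1706 and 2187 on arrays 1 to 3 of each group (log2 fold change 0.53, SE 0.15, adjusted p = 0.0455). The groups did not overlap. Sdhc, a membrane anchor, read 958, 1161 and 1256 in the control and 1427, 1422 and 2136 with the Pcl2 shRNA, also with separate groups (log2 fold change 0.54, adjusted p = 0.0994, and 0.0150 with the replicate number as a block). The flavoprotein Sdha had a log2 fold change of -0.01 and means of 1050.2 ± 89.0 in the control and 1039 ± 51.1 with the Pcl2 shRNA (SD, n = 3, adjusted p = 0.967). The other anchor, Sdhd, had one of -0.02 and means of 1115 ± 154 in the control and 1105 ± 171 with the Pcl2 shRNA (SD, n = 3, adjusted p = 0.967). The difference between subunits was not tested.

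In complex III, which passes electrons from ubiquinol to cytochrome c, all 9 genes had positive log2 fold changes, with a median of 0.35, and 2 rose. Uqcrq read 638, 1019 and 784 in the control and 1264, 1288 and 1259 with the Pcl2 shRNA. The Pcl2 shRNA values, with an SD of 15.3 (n = 3), lay above all control values (1.58-fold, log2 fold change 0.66, SE 0.18, adjusted p = 0.0379). Its other tested probe sets, which were dim, gave 0.06 and 0.49. Their means were 57.1 and 29.8 in the control and 59.5 and 43.2 with the Pcl2 shRNA, in that order. With probe sets open to cross-hybridisation left out, the gene stood at 0.06 (adjusted p = 0.898). Uqcr10 read 619.7, 744 and 636 in the control and 1011, 905 and 961 with the Pcl2 shRNA without overlap (1.44-fold, log2 fold change 0.52, SE 0.15, adjusted p = 0.0444), and its other tested probe sets gave 0.22 and 0.20.

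Cyc1, the cytochrome c1 subunit, read 2149.6, 2380.1 and 1668 in the control and 2854, 2742 and 2801 with the Pcl2 shRNA. Its groups did not overlap, and it passed with the replicate number as a block (adjusted p = 0.0408) but not without it (log2 fold change 0.45, adjusted p = 0.0988). Uqcrfs1, the Rieske iron-sulphur protein, read 1302, 1222 and 1161 in the control and 1862, 1173 and 2126 with the Pcl2 shRNA, and Pcl2 shRNA replicate 2 fell among the controls (adjusted p = 0.221). The brightest members of the complex were Uqcrb at 4740.1 ± 746 in the control and 5529 ± 368 with the Pcl2 shRNA and the core protein Uqcrc1 at 2371 ± 217 in the control and 2933 ± 375 with the Pcl2 shRNA (SD, n = 3). Neither passed the test (log2 fold changes 0.23 and 0.30, adjusted p = 0.400 and 0.251).

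**Figure D4:**
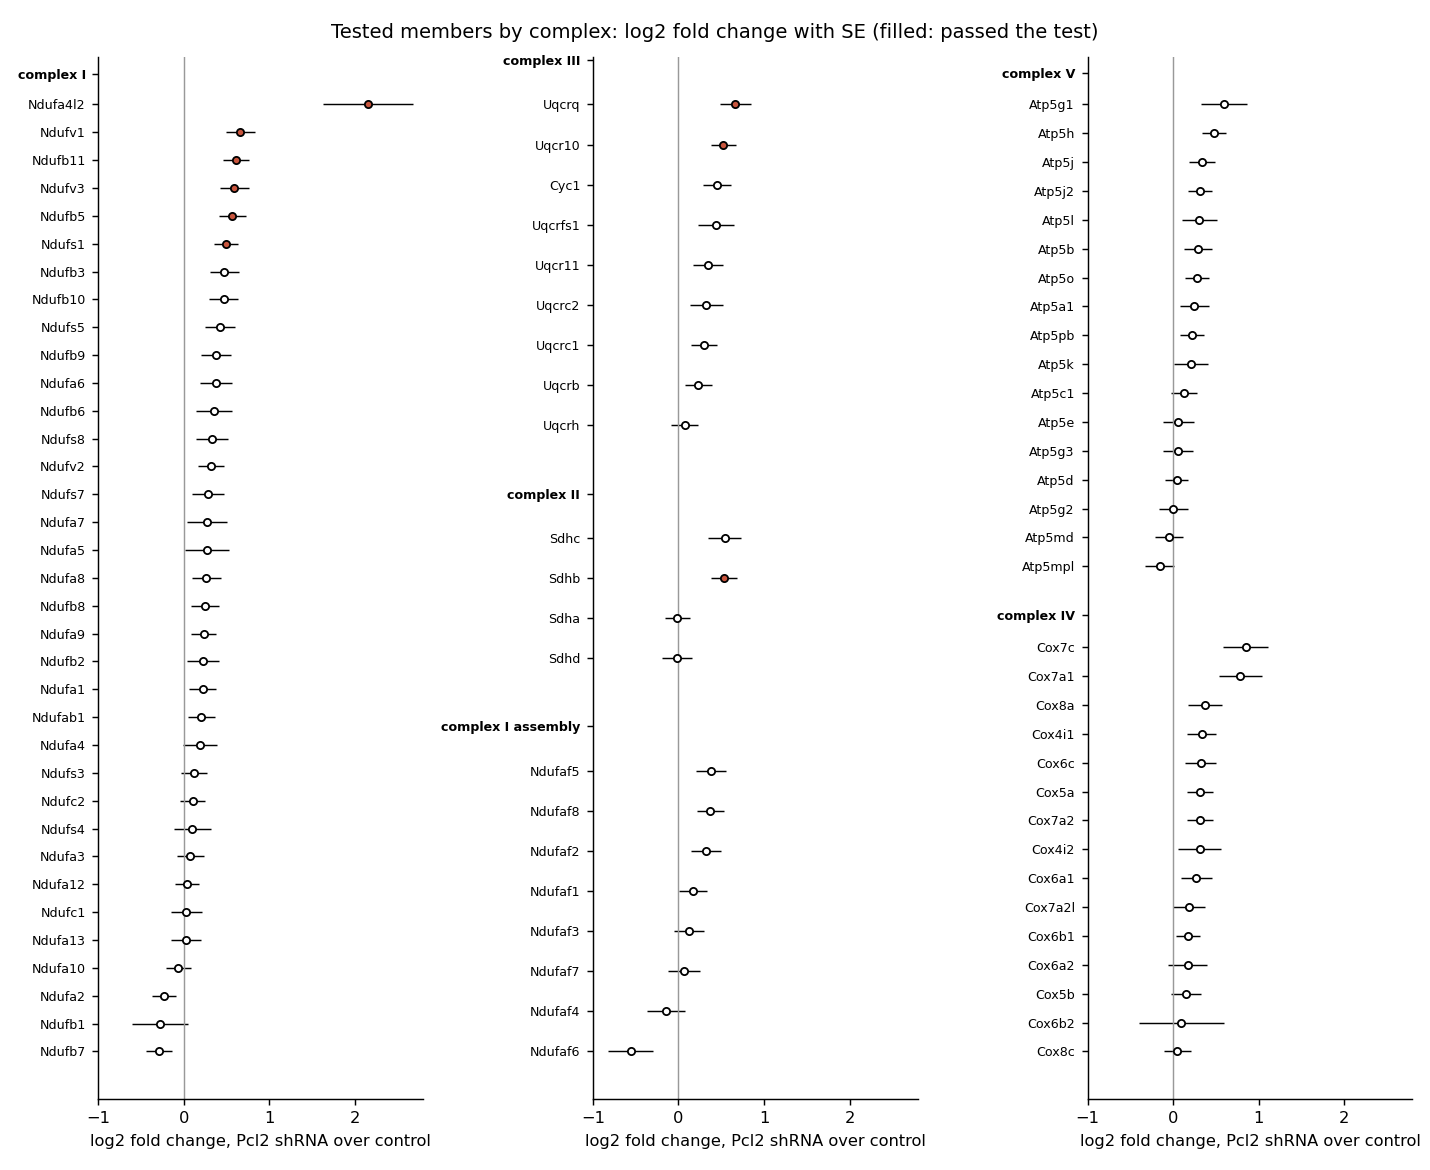
Log2 fold change, Pcl2 shRNA over control, with its SE for each of the 88 tested members, grouped by complex; filled points passed the test. By symbol, the 9 filled points lie in complexes I, II and III. All 15 points of complex IV lie above 0 at the reported scaling.

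In complex IV, cytochrome c oxidase, all 15 tested Cox genes had positive log2 fold changes (14 with median centring). Their median was 0.31 (0.17 with quantile normalization), and none passed the test in either direction. At an unadjusted p below 0.05, limma gave 2 of them higher, Cox7c and Cox7a1, and 0 lower. Several subunits exist as a broadly expressed form and a form of particular tissues. The 10 broadly expressed subunits had a median of 0.32, and the 5 tested forms of other tissues a median of 0.17.

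Among the broadly expressed forms, Cox4i1 read 2568, 3412 and 3213 in the control and 3465, 3514 and 4642 with the Pcl2 shRNA (log2 fold change 0.33, adjusted p = 0.262). Cox5a was among the brightest of the complex, at 5088, 5398 and 6117 in the control and 6259, 6528 and 7944 with the Pcl2 shRNA (log2 fold change 0.32, adjusted p = 0.226). Its groups did not overlap. Cox6a1 had means of 4242 ± 548 in the control and 5164 ± 1063 with the Pcl2 shRNA, Cox6b1 of 3150.4 ± 172 in the control and 3569.5 ± 309 with the Pcl2 shRNA, Cox7a2 of 4054 ± 479 in the control and 5036 ± 377 with the Pcl2 shRNA and Cox8a of 2050.4 ± 483 in the control and 2641 ± 452 with the Pcl2 shRNA (SD, n = 3). Their log2 fold changes were 0.27, 0.18, 0.32 and 0.38, with adjusted p from 0.208 to 0.481. Cox7a2l, which helps to join complexes III and IV, had means of 1336 ± 250.3 in the control and 1522 ± 286 with the Pcl2 shRNA (log2 fold change 0.19, adjusted p = 0.594). Cox7c was dim on its probe set, at 43.0, 82.5 and 55.9 in the control and 125, 128 and 85.5 with the Pcl2 shRNA (log2 fold change 0.85, SE 0.26, adjusted p = 0.0623, and 0.0173 with the replicate number as a block). Another probe set gave 0.62.

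The muscle and lung forms were dim. Cox7a1, the form of heart and skeletal muscle, read 78.7, 63.6 and 112 in the control and 124, 133 and 195 with the Pcl2 shRNA, with separate groups (log2 fold change 0.79, SE 0.25, adjusted p = 0.0699, and 0.00702 with the replicate number as a block). Cox6a2, also a muscle form, read 66.0, 52.7 and 76.4 in the control and 72.9, 88.7 and 61.0 with the Pcl2 shRNA (adjusted p = 0.699), and Cox8b, another one, was below the filter. Cox4i2, the lung form, read 43.0, 27.5 and 24.4 in the control and 36.8, 38.4 and 44.8 with the Pcl2 shRNA (adjusted p = 0.501). For comparison, the highest signal of 27 bacterial control probe sets without a spike was 11.2 to 12.1 on the control arrays and 18.0 to 20.3 on the Pcl2 shRNA arrays. The part of that difference in the dim members was not tested.

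Of the testis forms, Cox6b2 read 187, 333 and 758 in the control and 229, 339.8 and 744 with the Pcl2 shRNA, where samples of the same number lay closer together than samples of the same group (adjusted p = 0.930). Cox8c read 265 ± 8.25 in the control and 275 ± 18.8 with the Pcl2 shRNA (SD, n = 3, adjusted p = 0.879). Its other tested probe set, which is open to cross-hybridisation, went the other way with separate groups, from 106 ± 5.89 to 57.9 ± 27.7 (SD, n = 3, log2 fold change -0.88). Cox7b2 was below the filter. The summed signal of 10 striated muscle markers was 405 to 899 in the control and 185 to 242 with the Pcl2 shRNA, and 4 of them passed the filter. Of these, Acta1 fell by 3.58 on the log2 scale, while Myh6 at -0.75, Ckm at 0.12 and Tnni3 at 0.02 did not pass the test. With the replicate number as a block 2 fell, Acta1 and Myh6. Mb, Myog, Myh7, Tnnt2, Tnnt3 and Myl2 were below the filter.

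In complex V, none of the 17 genes passed the test in either direction. At an unadjusted p below 0.05, limma gave 3 higher, Atp5h, Atp5j2 and Atp5g1, and 0 lower. The median was 0.22 with 15 positive and 2 negative values, and with quantile normalization it was 0.08 with 12 positive. Atp5h, a subunit of the peripheral stalk, read 2207, 2572 and 2756 in the control and 3516, 3325 and 3631 with the Pcl2 shRNA, with separate groups (log2 fold change 0.48, SE 0.14, adjusted p = 0.0556, and 0.0227 with the replicate number as a block). Atp5j2, in the membrane part, read 2615, 2919 and 2475 in the control and 3432, 3268 and 3267 with the Pcl2 shRNA, also with separate groups (log2 fold change 0.32, adjusted p = 0.174).

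The 5 genes of the F1 part, which makes ATP, had a median of 0.12. The catalytic subunit Atp5b read 5095, 5885 and 6098 in the control and 6119, 6507 and 8436 with the Pcl2 shRNA (log2 fold change 0.29, adjusted p = 0.304), and the groups did not overlap. The 3 genes Atp5g1, Atp5g2 and Atp5g3 encode the same mature c subunit of the rotor ring. Atp5g1 read 921, 1179 and 508 in the control and 1236, 1398 and 1120.2 with the Pcl2 shRNA, where control replicate 3 was low (log2 fold change 0.60, SE 0.27, adjusted p = 0.187, and 0.0301 with the replicate number as a block). Atp5g2 had means of 2232 ± 339.7 in the control and 2234 ± 311 with the Pcl2 shRNA, and Atp5g3 of 5602 ± 1130.2 in the control and 5796 ± 714 with the Pcl2 shRNA (SD, n = 3). Their log2 fold changes were 0.00 and 0.06 (adjusted p = 0.992 and 0.872).

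Probe sets that did not stand for a gene gave a check of the same direction. Of 72 other tested probe sets, 61 had the sign of their gene's brightest probe set, and 11 of 48 genes had at least one of the other sign. The 9 other tested probe sets of the members that rose belonged to Ndufb11, Ndufb5, Ndufv1, Uqcr10 and Uqcrq. All were above 0, the smallest at 0.06 for a dim Uqcrq probe set. Ndufa4l2, Ndufs1, Ndufv3 and Sdhb had a single probe set and no such check. Other probe sets share arrays with the chosen ones, so they check the probes and not the samples.

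Other mitochondrial genes were read in the same way, by lists. Of the subunits encoded in mitochondrial DNA, only ND5 of complex I had a single-gene probe set, at 2657, 3601 and 4194 in the control and 5863, 4131 and 4691 with the Pcl2 shRNA (log2 fold change 0.50, SE 0.20, adjusted p = 0.140). Its groups overlapped. Of 38 tested assembly factors outside the Ndufaf family, none passed the test in either direction (limma, 3 higher and 0 lower at an unadjusted p below 0.05), and their median was 0.12. With the replicate number as a block, 4 rose, Acad9, Atpaf1, Nubpl and Cox17, the last a copper chaperone of complex IV (log2 fold change 0.40, adjusted p = 0.0471 with the block and 0.112 without). Sdhaf4, a complex II factor, had a log2 fold change of 0.37 (adjusted p = 0.169).

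Among 21 mobile carriers and other electron entry genes, 2 rose and none fell (limma, 5 higher and 0 lower at an unadjusted p below 0.05), with a median of 0.12. With the replicate number as a block 4 rose, with Coq8a (adjusted p = 0.0229) and Coq9 (adjusted p = 0.0485) added. Etfb, a subunit of the flavoprotein that brings electrons from fatty acid oxidation, had means of 820.1 ± 78.4 in the control and 1337 ± 159 with the Pcl2 shRNA (SD, n = 3, log2 fold change 0.70, SE 0.16, adjusted p = 0.0150). Coq3, which makes ubiquinone, had means of 276 ± 35.5 in the control and 423 ± 34.5 with the Pcl2 shRNA (SD, n = 3, log2 fold change 0.61, SE 0.17, adjusted p = 0.0393). Cytochrome c itself, Cycs, stood at 0.02 (adjusted p = 0.965).

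Among 24 genes of the citric acid cycle and pyruvate entry, 2 rose and 2 fell, with a median of 0.13. Limma gave 5 of them higher and 2 lower at an unadjusted p below 0.05. With the replicate number as a block 5 rose and 3 fell, where Idh2, Pdhx and Pdk4 joined the rises (adjusted p = 0.0432, 0.0363 and 0.0151) and Dlst the falls (adjusted p = 0.0455). Mpc1, a subunit of the mitochondrial pyruvate carrier, had means of 157 ± 28.6 in the control and 335 ± 16.4 with the Pcl2 shRNA (SD, n = 3, log2 fold change 1.08, SE 0.18, adjusted p = 0.00399). Pdk1, the kinase that turns pyruvate dehydrogenase off, had means of 1371 ± 143 in the control and 2293 ± 264 with the Pcl2 shRNA (SD, n = 3, log2 fold change 0.74, SE 0.15, adjusted p = 0.0113). Of the succinyl-CoA synthetase subunits, Suclg2 and Suclg1 went the other way, while Sucla2 stood at 0.14 (adjusted p = 0.679). Suclg2 had means of 1232 ± 247 in the control and 663 ± 43.8 with the Pcl2 shRNA and Suclg1 of 1275 ± 69.8 in the control and 867 ± 55.8 with the Pcl2 shRNA (SD, n = 3). Their log2 fold changes were -0.87 (SE 0.17, adjusted p = 0.00822) and -0.55 (SE 0.14, adjusted p = 0.0281).

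Of 10 tested genes that handle ATP, none rose and 1 fell (limma, 0 higher and 1 lower at an unadjusted p below 0.05), with a median of 0.04. Slc25a4, an ADP/ATP carrier, had means of 2411 ± 373 in the control and 1638 ± 66.6 with the Pcl2 shRNA (SD, n = 3, log2 fold change -0.54, SE 0.16, adjusted p = 0.0479), while its paralogue Slc25a5 stood at 0.29 (adjusted p = 0.333). Of 24 genes of biogenesis and mitochondrial DNA expression, 1 rose and none fell (limma, 8 higher and 1 lower at an unadjusted p below 0.05), with a median of 0.27. With the replicate number as a block 7 rose, Tefm, Gabpa, Gabpb2, Mterf1a, Mterf2, Ssbp1 and Tfb2m, and 1 fell, the mitochondrial DNA polymerase Polg (log2 fold change -0.64, adjusted p = 0.00780). Tefm, a mitochondrial transcription elongation factor, had means of 297 ± 5.61 in the control and 451 ± 57.9 with the Pcl2 shRNA (SD, n = 3, log2 fold change 0.58, SE 0.16, adjusted p = 0.0392). Nrf1 stood at -0.02 (adjusted p = 0.968), and Gabpa, the DNA-binding subunit of GABP, at 0.64 (adjusted p = 0.0547, and 0.00354 with the replicate number as a block). Ppargc1a was below the filter.

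Mitochondrial ribosomal proteins translate the mitochondrially encoded subunits. Of 76 tested, 5 rose (6.58%, against 4.46% of all genes) and 2 fell, with a median of 0.16 and 56 positive values. At an unadjusted p below 0.05, limma gave 18 higher and 3 lower. With the replicate number as a block 17 rose and 4 fell, where 9.97% of all genes rose and 13.8% fell. Mrps31 (0.64, adjusted p = 0.0167), Mrps24 (0.62, adjusted p = 0.0191) and Mrps17 (0.53, adjusted p = 0.0322) were among those that rose on the log2 scale, with Mrpl1 and Mrpl21. Mrps25 (-0.90, adjusted p = 0.0186) and Mrpl35 (-0.59, adjusted p = 0.0352) fell. Of 22 tested protein import genes, none passed the test in either direction, with a median of 0.06. With the block 1 rose, Timm17b (log2 fold change 0.43, adjusted p = 0.0317), and 2 fell, Timm21 and Timm22 (the latter at a log2 fold change -0.58, adjusted p = 0.00780). At an unadjusted p below 0.05, limma gave 1 of them higher and 2 lower.

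Over these other mitochondrial lists, 10 of 216 tested genes rose and 5 fell. The share that rose, 4.63%, was near the 4.46% of all genes, and 2.31% fell, against 8.16% of all genes. By list, ND5 aside, the share with a positive log2 fold change ran from 54.5% (protein import) to 75% (biogenesis). It was 73.7% for mitochondrial ribosomal proteins and 70.8% for the citric acid cycle list, against 52.4% of all genes and 88.6% of members. More of these genes rose with the replicate number as a block, as the closing section gives. Without control replicate 1 the counts that rose and fell were 5 and 2. Without Pcl2 shRNA replicates 1, 2 and 3 in turn they were 4 and 2, 1 and 1, and 3 and 2. Mpc1 and Suclg2 passed in all 6 fits that left out 1 array. Pdk1 lost the call without Pcl2 shRNA replicate 2, and Etfb without Pcl2 shRNA replicate 1 or 2. Coq3 and Tefm lost it in all 6 fits, Slc25a4 in all but the one without control replicate 2, and Suclg1 without control replicate 1 or any Pcl2 shRNA replicate.

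How many members rose depended on single arrays. Without control replicate 1 or without Pcl2 shRNA replicate 2, none of the 88 passed. Without control replicate 3 the count was 3, without Pcl2 shRNA replicate 1 it was 2, without Pcl2 shRNA replicate 3 it was 1, and without control replicate 2 it was 8. Of these, 2, 2, 0 and 6 in that order were among the 9 that rose with all arrays. Ndufs1 and Sdhb lost the call in all 6 of these fits. Ndufb11 kept it in 1 of them, without control replicate 3. Ndufb5, Ndufv3, Uqcr10 and Uqcrq also kept it in 1, without control replicate 2. Ndufv1 lost the call without control replicate 1, Pcl2 shRNA replicate 2 or Pcl2 shRNA replicate 3. Ndufa4l2 lost it without control replicate 1, control replicate 3, Pcl2 shRNA replicate 2 or Pcl2 shRNA replicate 3. In these 6 fits the members' median stayed between 0.19 and 0.32, and no member fell.

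Centring each array on its median of log2 values left 1 call, Ndufa4l2. That scaling moved the median of all genes from 0.02 to -0.04 and the members' median to 0.21, with 72 of 88 positive. Without both replicates 1, which held the highest fibroblast marker sums, the members' median was 0.20 against 0.05 for all genes, with 74 positive and 1 past the test, a comparison chosen after seeing the data.

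**Figure D5:**
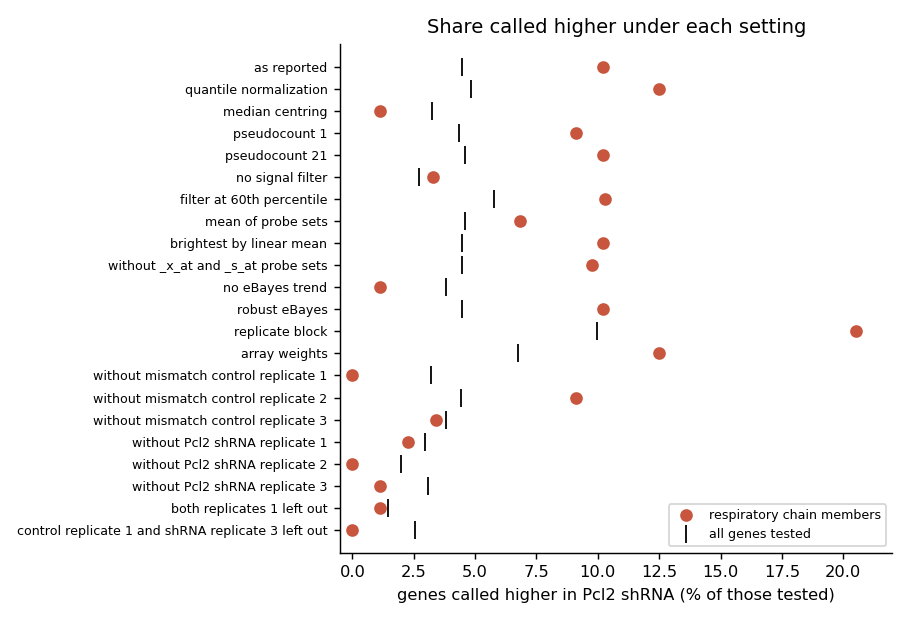
Percent of genes called higher with the Pcl2 shRNA (x axis) under each setting (y axis), for the tested members (points) and all genes tested (ticks). The members' share is 10.2% against 4.46% as reported, 20.5% against 9.97% with the replicate block, and below that of all genes in 5 of the 6 fits that leave out 1 array.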

How the data were processed

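Total RNA was hybridised to Mouse Genome 430 2.0 arrays. The authors deposited 1 intensity per probe set and array, the linear MAS5 signal named in the submitters' processing notes. GCOS 1.4 was used, per the labels' protocols. All arrays were already scaled alike, and this scaling was kept. No genome build is given in the labels. Symbols came from the platform annotation, updated through the RefSeq gene table of GRCm38.p6, which matched 34741 of 34945 single-gene probe sets. The 932 probe sets naming several genes were left out.

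Signals were taken as log2(signal + 7), with the 20th percentile of the table as the added constant. Probe sets were tested if their mean reached the 40th percentile, a signal of 20.2, and the brightest stood for each of 13095 genes. Differences, Pcl2 shRNA minus control, were tested over all of them with limma 3.58.1 in R 4.3.3 (lmFit, eBayes with trend), two-sided, at a Benjamini-Hochberg adjusted p below 0.05. The test was run on simulated data with noise drawn separately for each probe set and array. The planted fold changes were larger than those of most members that rose. That run does not bear on shifts shared by an array, on the replicate numbers or on changes of the members' size. Called means past this threshold.

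Members and gene lists were chosen with earlier results of these data known. Named genes were the members past the threshold, in each complex the 2 with the smallest p where fewer passed and the 2 brightest, isoform pairs, and up to 4 genes of each other list. Ndufv2, Ndufa2, Ndufb3, Ndufb7, Ndufb10, Ndufs5, Ndufaf6, Sdha, Sdhd, Cyc1, Uqcrfs1, Cycs, Slc25a5, Nrf1, Gabpa, Ppargc1a, Mrpl1, Mrpl21, Mrpl35, Timm21, Acad9, Atpaf1, Nubpl, Coq8a, Coq9, Idh2, Pdhx, Pdk4, Dlst, Gabpb2, Mterf1a, Mterf2, Ssbp1, Tfb2m and Polg were added after their values were seen. Sucla2 was also added after its value was seen. Alternatives changed 1 choice at a time, as the closing section lists.

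Deviations from the group means correlated at 0.250 to 0.397 between samples of the same number and at -0.382 to -0.00 between others. The labels do not say that a number marks a shared culture, so the numbers were taken to pair samples on the data alone. Results with the number as a block are given for members and gene lists where a call or count changed.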

Additional observations from a re-analysis of the deposited data

How the results depend on the processing

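Counts of members that rose, 9 as reported, were 1 with median centring, 3 without the signal filter, 1 without the eBayes trend, 18 with the replicate block, which ended no member's call, and 0 to 8 with 1 array left out. They were 1 without both replicates 1 and 0 without control replicate 1 and Pcl2 shRNA replicate 3. With quantile normalization, other pseudocounts, a higher filter, other choices of probe set, robust eBayes or array weights, 6 to 11 rose. No member fell in any setting run. The members' median, 0.27, kept its sign in all settings, from 0.11 without control replicate 1 and Pcl2 shRNA replicate 3 to 0.32. In the other mitochondrial lists, 10 genes rose and 5 fell. The number that rose was 38 of 216 with the replicate block, where 9.97% of all genes rose. It was 3 with median centring, 5 without the trend, 21 with array weights and 1 to 10 with 1 array left out. It was 1 without both replicates 1 and 3 without control replicate 1 and Pcl2 shRNA replicate 3. The number that fell was 11 with the replicate block, where 13.8% of all genes fell. It was 2 without the trend and 1 to 4 with 1 array left out, then 0 and 2 in the 2 settings chosen after seeing the data. Mtf2 went from -0.84 to -0.63 with 1 array left out, and lost the call without control replicate 1 at -0.75 (adjusted p = 0.0519), as well as without the Pcl2 shRNA's replicate 3 at -0.63 (adjusted p = 0.0574). Its values in the 2 added settings were -0.81 and -0.60, also without a call. The causes were not tested. Cox7a1 and Atp5h passed with quantile normalization and with array weights. Cox7b2, Cox8b and Ndufb4 were too dim to be tested.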
